A study of Mus musculus with 4 samples.

Results

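The mRNA decay regulators described here are 6 genes of the 32285 counted: Zfp36, Zfp36l1, Zfp36l2, Zc3h12a, Zc3h12d and Rc3h1. They were chosen by symbol, as RNA-binding proteins known to limit cytokine mRNAs in T cells. CD4 T cells were sorted from mouse spleen on CD3 and CD4, cultured for 6 h with beads carrying antibodies to CD3 and CD28, and profiled by droplet 3′ single-cell RNA sequencing. All 4 libraries were stimulated, and each label, Irf5-/- or WT, was given to 1 library from female and 1 from male mice. No unstimulated library was analysed here, so resting below means cells of the stimulated cultures without activation transcripts. Neither the number of mice behind each library nor whether libraries came from separate mice is stated in the labels. The p-values rest on a spread between these 4 libraries that the tests estimate in large part over all genes together. They are thus not a measure of each gene's own spread, most so in the genotype and sex fits, and the spread may be in part technical.

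The 3 proteins of the Zfp36 family (tristetraprolin, encoded by Zfp36, and its paralogs encoded by Zfp36l1 and Zfp36l2) bind AU-rich elements in the 3′ untranslated region (UTR) of mRNAs and recruit the CCR4-NOT complex, which shortens the poly(A) tail. Zc3h12a encodes Regnase-1, an endoribonuclease that cuts mRNAs at stem-loops, Zc3h12d encodes a related nuclease-domain protein, and Rc3h1 encodes Roquin-1, which binds stem-loops and also recruits deadenylases. In T cells these proteins are known as brakes on cytokine and costimulatory transcripts such as Tnf, Il2, Icos and Tnfrsf4, and stimulation through the T cell receptor is known to inactivate several of them through kinases and the protease Malt1.

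The element that links the regulators to the cytokines used here can be read in the UTRs themselves. The windows below hold the nonamer TTATTTATT, the preferred site of the Zfp36 family, in capitals, and they are shown because Tnf and Il2 define the cytokine-producing cells and because the transcripts of several regulators carry the same letters. They are written 5′ to 3′ along the transcript in DNA letters.
Tnf: ttaTTATTTATTTATTATTTATTTATTtgc
Il2: tttatctgaaaTTATTTATTatattgaatt
Zfp36: ttatgacgactTTATTTATTgtattaagat
Zfp36l1: aaactgttggaTTATTTATTttagaaattc
Zfp36l2: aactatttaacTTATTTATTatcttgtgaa
Rc3h1: tactttactcaTTATTTATTgagatgagga

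The Tnf window lies in the 3′ UTR at chr17:35199674-35199703 (GENCODE M21 annotation, GRCm38, minus strand) and holds 4 overlapping matches of the 5 in that UTR. The Il2 window lies at chr3:37120898-37120927 on the minus strand and holds the only match of its UTR. Those of Zfp36 (chr7:28376951-28376980, minus strand), Zfp36l1 (chr12:80108167-80108196, minus strand), Zfp36l2 (chr17:84184914-84184943, minus strand) and Rc3h1 (chr1:160970042-160970071, plus strand) hold 1 match each, and the UTRs of Zc3h12a and Zc3h12d hold none. Searched on the transcript strand with overlapping matches counted, the nonamer was present in 7.64% of the 20772 mouse 3′ UTRs. Among UTRs within 20% of the same length it was present in 4.07% for Zfp36, 9.88% for Zfp36l1, 9.89% for Zfp36l2 and 27.5% for Rc3h1. Tnf also holds the letters of the stem-loop bound by Roquin, searched as TTCNNNGAA and shown here in capitals because it is the other decay element in that UTR (chr17:35199580-35199604).
Tnf stem-loop: gacatgttTTCTGTGAAaacggagc

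The same stem-loop letters were present once in the UTRs of Zfp36l1, Zfp36l2 and Zc3h12d, 7 times in the 7181-base UTR of Rc3h1, and in 33.7% of all 3′ UTRs. Among UTRs of like length at least 1 match was present in 48.5%, 48.5% and 56.6% for the first 3 genes, and 7 or more in 2.80% for Rc3h1. These are matches of letters, and folding was not tested. RefSeq promoters of 300 bases (GRCm38.p6) were matched for 5 of the 6 genes, all but Zfp36l2. The Zfp36 promoter held 1 CArG box, the site of serum response factor, which was present in 1.63% of the 32851 mouse promoters searched on both strands. The letters TGANTCA, which take in the AP-1 site, were present once each in the promoters of Zfp36l1 and Rc3h1 and in 7.81% of promoters. The match is TGACTCA, an AP-1 site by its letters, in Rc3h1 and TGATTCA, which is not the AP-1 consensus, in Zfp36l1. Neither the Egr site GCGTGGGCG, the CRE site TGACGTCA nor a kappaB site was found in these 5 windows.

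The kept cells numbered 6178 and 6543 in the female and male libraries labelled Irf5-/-, and 1814 and 4565 in the female and male libraries labelled WT, 19100 in all, with median depths of 5104.5 to 9661 unique molecular identifiers (UMIs, counted molecules) per cell. The female library labelled WT stood apart, with 55.6% of its UMIs in kept cells and 36.2% in droplets of under 200 UMIs, against 83.2% to 89.2% and 8.62% to 14.7% in the others. Pairs of libraries shared 2 to 14 cell barcodes. Irf5 went against the labels: it had 293 and 432 UMIs in the female and male libraries labelled Irf5-/- and 15 and 55 in those labelled WT, a log2 difference of 2.94 (SE 0.18, adjusted p = 6.00e-07). The labels do not say which exons the allele lacks, and 3′ counts may not read them. Irf5 also overlaps Tnpo3 on the other strand, and whether counting used strand is not given in the sources used here. Whether the labels were exchanged was not tested; an exchange would turn every direction given below for the genotype label, and each group is therefore called by its label. The summed level of 5 T cell markers (Cd3d, Cd3e, Cd3g, Trac and Cd4) was 1261 to 1449 CPM (UMIs scaled to a common library total), while that of Cd8a and Cd8b1 was 7.86 to 10.3 CPM and that of 5 B cell markers 26.8 to 167 CPM. Markers of NK cells summed to 4.20 to 8.54 CPM, of gamma-delta T cells to 4.18 to 11.9, of myeloid cells to 31.4 to 60.5, of erythroid cells to 9.97 to 1007 and of regulatory T cells to 65.0 to 142 CPM, and the 1 marker of innate-like T cells was at 2.26 to 6.84 CPM.

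Cells were sorted into states by raw UMIs. All states come from the same 6 h cultures, so no order in time was measured. Rose and fell below mean higher and lower than in the state compared. Cytokine-producing cells held at least 3 UMIs of Il2 or of Tnf (2279 cells, 251 to 843 per library). Egr3-high cells held at least 3 UMIs of Egr3, a transcription factor gene induced by T cell receptor signals, and fewer of both cytokines (664 cells, 77 to 248 per library). Resting cells held no UMI of Egr2, Egr3, Nr4a1, Nr4a3, Il2ra, Tnfrsf9, Il2 or Tnf (3624 cells, 317 to 1256 per library), and the other 12533 cells were intermediate. Median depth rose from resting (3304 to 6035 UMIs) to Egr3-high (4573.5 to 8858) to cytokine-producing cells (6699.5 to 11682), so levels are given as CPM of each library's summed counts after scaling (TMM) and were tested again with every cell thinned to 2000 UMIs. The states were then set anew on the thinned counts, which gave 5962 resting, 305 Egr3-high and 534 cytokine-producing cells, so values given for thinned cells differ in both depth and the cells in each state. Transcripts of activated T cells that were not used for sorting (Cd69, Myc, Nfkbid, Irf4 and Tnfrsf4) summed to 294 to 465 CPM in resting, 5699 to 7335 in Egr3-high and 4506 to 5046 in cytokine-producing cells. Resting cells also held more transcripts of other lineages: the 5 B cell markers summed to 69.4 to 746 CPM against 15.2 to 43.1 in Egr3-high cells, and 6 erythroid markers to 15.1 to 6768 against 0 to 19.96. Without cells of other lineages, Zfp36 was 2.47 and Zfp36l1 2.42 higher in Egr3-high than in resting cells on the log2 scale, close to the values over all kept cells given below.

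Zfp36, Zfp36l1 and Zc3h12a were higher in Egr3-high than in resting cells, by 4.3- to 5.7-fold, Rc3h1 was slightly higher, and Zfp36l2 was lower. So 4 of the 6 genes rose, 1 fell and Zc3h12d did not pass the test, where 62.2% of the 10146 genes tested were called (30.9% higher and 31.3% lower); a call as such is therefore common, and the sizes and patterns below carry the description. The median log2 difference of the 6 genes was 1.28, against -0.08 over all genes tested. The share of all genes without overlap between states is not given. A lack of overlap below therefore describes the values and does not mark these genes out.

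Zfp36 differed most between Egr3-high cells and the other states. In resting cells it stood at 48.0 and 41.8 CPM in the female and male libraries labelled Irf5-/-, and at 56.0 and 40.4 CPM in those labelled WT. In Egr3-high cells it stood at 359 and 196 CPM in the female and male libraries labelled Irf5-/-, and at 331 and 206 CPM in those labelled WT. Every Egr3-high value lay above every resting value, and both female libraries lay above both male ones. The log2 difference was 2.51 (SE 0.15, adjusted p = 2.65e-10), and 3.60 in cells thinned to 2000 UMIs. In cytokine-producing cells the level was back to 47.0 and 44.5 CPM (female and male, labelled Irf5-/-) and 57.6 and 61.5 CPM (labelled WT), within or just above the resting range. The log2 difference of cytokine-producing from Egr3-high cells was thus -2.29 (SE 0.14, adjusted p = 1.27e-08), with no overlap between libraries. Their difference from resting cells was 0.22 (SE 0.15, adjusted p = 0.178). That last comparison depended on the setting: it passed at 0.73 with thinned cells (adjusted p = 8.62e-04), at 0.71 with resting set by Egr3, Il2 and Tnf only (adjusted p = 1.20e-04) and at 0.33 without an expression filter (adjusted p = 0.00929).

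**Figure D1:**
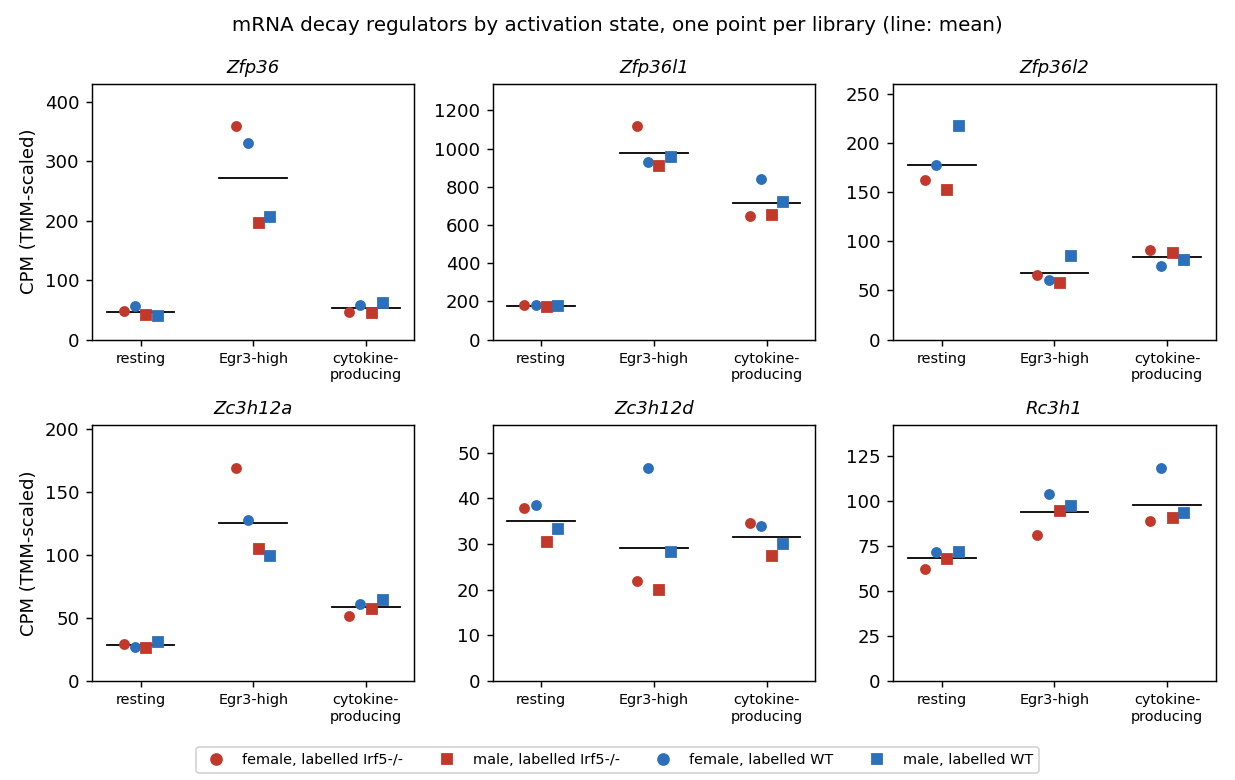
Levels of the 6 genes (y axes, CPM of summed UMIs after TMM scaling, each from 0) in resting, Egr3-high and cytokine-producing cells (x axes), with 1 point per library and a line at the mean of 4. Zfp36 runs from 40.4 to 56.0 CPM in resting cells, from 196 to 359 in Egr3-high cells and from 44.5 to 61.5 in cytokine-producing cells, while Zfp36l2 is highest in resting cells.

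Zfp36l1 was higher by about as much in Egr3-high cells and was also well above resting in cytokine-producing cells. It stood at 181 and 169 CPM in resting cells of the female and male libraries labelled Irf5-/- and at 179 and 174 CPM in those labelled WT. Egr3-high cells held 1116 and 907 CPM (labelled Irf5-/-) and 928 and 958 CPM (labelled WT). Cytokine-producing cells held 648 and 651 CPM (labelled Irf5-/-) and 841 and 722 CPM (labelled WT). The 3 states did not overlap, with resting lowest and Egr3-high highest. Zfp36l1 was 2.47 higher on the log2 scale in Egr3-high than in resting cells (SE 0.09, adjusted p = 8.69e-13) and 2.02 higher in cytokine-producing than in resting cells (SE 0.09, adjusted p = 2.13e-12). With resting set by 3 genes in place of 8, which lets in cells with other activation transcripts, these were 1.59 and 1.13. The log2 difference of cytokine-producing from Egr3-high cells was -0.45 (SE 0.09, adjusted p = 5.70e-04), far smaller than that of Zfp36.

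Zfp36l2, which with Zfp36l1 is known to restrain the cell cycle in developing lymphocytes, ran the other way. In resting cells it stood at 162 and 153 CPM in the female and male libraries labelled Irf5-/- and at 177 and 217 CPM in those labelled WT. It fell to 65.8 and 57.8 CPM (labelled Irf5-/-) and 60.6 and 85.2 CPM (labelled WT) in Egr3-high cells. Cytokine-producing cells held 91.3 and 88.3 CPM (labelled Irf5-/-) and 75.2 and 81.1 CPM (labelled WT). Both activated states lay below every resting value. Zfp36l2 fell by 1.38 on the log2 scale in Egr3-high cells (SE 0.13, adjusted p = 7.42e-08) and by 1.06 in cytokine-producing cells (SE 0.11, adjusted p = 6.22e-08). The 2 activated states overlapped, and their difference of 0.32 did not pass the test (SE 0.13, adjusted p = 0.0722), although it passed at 0.37 to 0.49 under 5 of the alternatives, among them leaving out the male library labelled WT (0.48, adjusted p = 0.0218).

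Zc3h12a was also highest in Egr3-high cells, by less than Zfp36. Its resting levels were 29.4 and 26.3 CPM in the female and male libraries labelled Irf5-/- and 26.8 and 31.1 CPM in those labelled WT. In Egr3-high cells they were 169.7 and 105 CPM (labelled Irf5-/-) and 128 and 99.2 CPM (labelled WT). Cytokine-producing cells held 51.4 and 57.0 CPM (labelled Irf5-/-) and 60.9 and 64.7 CPM (labelled WT). The 3 states did not overlap. The log2 difference from resting cells was 2.10 in Egr3-high cells (SE 0.15, adjusted p = 2.78e-09), or 3.02 with thinned cells, and 1.05 in cytokine-producing cells (SE 0.14, adjusted p = 1.95e-06). From Egr3-high to cytokine-producing cells the log2 difference was -1.05 (SE 0.14, adjusted p = 2.07e-05).

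Zc3h12d did not pass between resting and activated cells at full depth, on few molecules, and was called lower with thinned cells. It had 19 to 40 UMIs per library in Egr3-high cells, and its levels there (21.9 and 19.9 CPM in the female and male libraries labelled Irf5-/-, 46.8 and 28.1 CPM in those labelled WT) overlapped its resting levels (37.9, 30.4, 38.5 and 33.2 CPM in the same order). The log2 difference was -0.35 (SE 0.16, adjusted p = 0.0701) from resting to Egr3-high cells and -0.15 (SE 0.12, adjusted p = 0.239) from resting to cytokine-producing cells. The first of these passed without the female library labelled WT (-0.51, adjusted p = 0.0159), and both passed with thinned cells (-0.998, adjusted p = 0.0308, and -1.10, adjusted p = 6.91e-04).

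Rc3h1 rose modestly in both activated states. It stood at 61.9 and 67.7 CPM in resting cells of the female and male libraries labelled Irf5-/- and at 71.6 and 71.5 CPM in those labelled WT. Egr3-high cells held 80.8 and 94.5 CPM (labelled Irf5-/-) and 104 and 97.1 CPM (labelled WT), all above every resting value. Cytokine-producing cells held 88.6 and 90.6 CPM (labelled Irf5-/-) and 119 and 93.3 CPM (labelled WT). The log2 difference from resting cells was 0.46 in Egr3-high (SE 0.10, adjusted p = 7.34e-04) and 0.50 in cytokine-producing cells (SE 0.08, adjusted p = 4.25e-05). With thinned cells neither passed (0.29, adjusted p = 0.330, and 0.35, adjusted p = 0.0633), and with resting set by 3 genes the first was 0.21 (adjusted p = 0.0919).

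In cytokine-producing against resting cells 3 of the 6 genes rose and 1 fell, where 78.5% of all genes were called (37.3% higher and 41.2% lower). In cytokine-producing against Egr3-high cells none rose and 3 fell, where 34.9% of all genes were called (17.3% higher and 17.6% lower). The resting and Egr3-high sums enter 2 of these comparisons each, so the comparisons are not independent. Scaling by total UMIs alone moved the median log2 difference of all genes from resting to Egr3-high cells from -0.08 to -0.22, and it left the sign of every value given above. The log2 differences of the 6 genes are drawn in the plot of changes between cell classes.

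**Figure D2:**
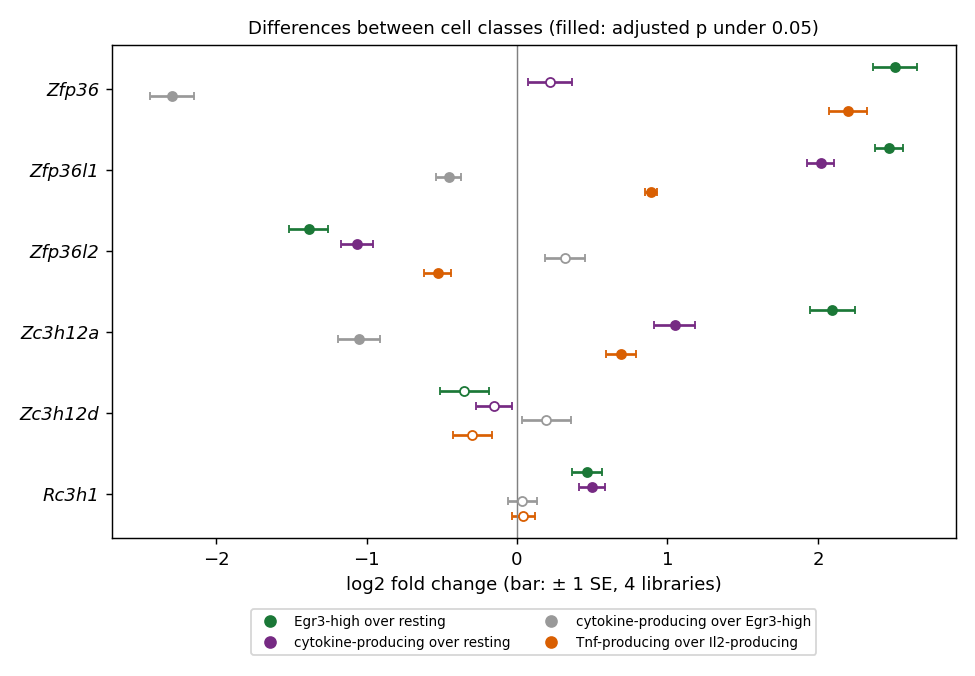
Log2 fold changes (x axis) of the 6 genes (y axis) for 4 comparisons over 4 libraries, with bars of 1 SE and filled points where the adjusted p was under 0.05. Zfp36 sits at 2.51 in Egr3-high over resting cells, at 0.22 in cytokine-producing over resting cells and at 2.20 in Tnf- over Il2-producing cells.

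Cytokine-producing cells were not uniform. Splitting them by cytokine gave 701 cells with Il2 alone at 3 or more UMIs (66 to 234 per library), 1321 with Tnf alone (153 to 562) and 257 with both. Zfp36 stood at 84.2 and 69.2 CPM in Tnf-producing cells of the female and male libraries labelled Irf5-/- and at 85.9 and 80.2 CPM in those labelled WT. In Il2-producing cells it stood at 20.6 and 11.5 CPM (labelled Irf5-/-) and at 13.9 and 20.9 CPM (labelled WT), from 130 UMIs in all. The 2 classes were far apart in each library, with a log2 difference of 2.20 (SE 0.13, adjusted p = 1.18e-11). The Il2-producing cells also lay below every resting value and below the Zfp36 level of the free RNA in droplets of under 200 UMIs, which was 41.1 to 56.0 CPM. Cells with both cytokines held 30.3 ± 8.17 Zfp36 UMIs per 100 cells (SD, n = 4 libraries), against 71.4 ± 14.5 with Tnf alone and 18.6 ± 6.46 with Il2 alone, at median depths of 7223 to 12566, 6107 to 11010 and 7245 to 13553 UMIs.

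Of the 6 genes, 3 were higher in Tnf- than in Il2-producing cells and 1 was lower, where 24.2% of the 8278 genes tested were called (13.7% higher and 10.4% lower). Zfp36l1 stood at 838, 778, 965 and 812 CPM with Tnf (female then male labelled Irf5-/-, female then male labelled WT) against 456, 437, 518 and 420 CPM with Il2, a log2 difference of 0.89 (SE 0.04, adjusted p = 1.99e-13). Zc3h12a was 0.69 higher (SE 0.10, adjusted p = 1.71e-05), at 66.7 to 72.3 CPM against 39.2 to 51.9. Zfp36l2 was lower at a log2 difference of -0.53 (SE 0.09, adjusted p = 1.05e-04), at 52.5 to 76.0 CPM against 96.9 to 108, and did not pass with thinned cells (-0.73, adjusted p = 0.188). Zc3h12d (-0.30, adjusted p = 0.0996) and Rc3h1 (0.04, adjusted p = 0.754) did not pass.

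The cytokine split was not separate from Egr3. Tnf-producing cells held more Egr3 than Il2-producing cells (log2 difference 2.73). Among cells with no Egr3 UMI, a comparison chosen after the data were seen, Zfp36 stood at 30.8 to 43.6 CPM with Tnf and at 10.6 to 17.5 CPM with Il2. The log2 difference was 1.31 (SE 0.20, adjusted p = 3.13e-05), and that of Zfp36l1 was 0.54 (SE 0.06, adjusted p = 1.39e-07), where 6.5% of genes were called. Zc3h12a (0.28, adjusted p = 0.336) and Zfp36l2 (-0.37, adjusted p = 0.0501) no longer passed. Within cytokine-producing cells, those with at least 3 Egr3 UMIs against those with none, also compared after the data were seen, held 145, 127, 157 and 175 CPM of Zfp36 (female then male labelled Irf5-/-, female then male labelled WT) against 25.6, 20.2, 23.1 and 26.1 CPM. This log2 difference was 2.67 (SE 0.11, adjusted p = 3.45e-18). Zfp36l1 (1.26) and Zc3h12a (1.27) were higher as well and Zfp36l2 was lower (-0.91), each at an adjusted p of 3.06e-06 or less, where 32% of genes were called, while Zc3h12d (-0.39, adjusted p = 0.0970) and Rc3h1 (-0.15, adjusted p = 0.282) did not pass.

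**Figure D3:**
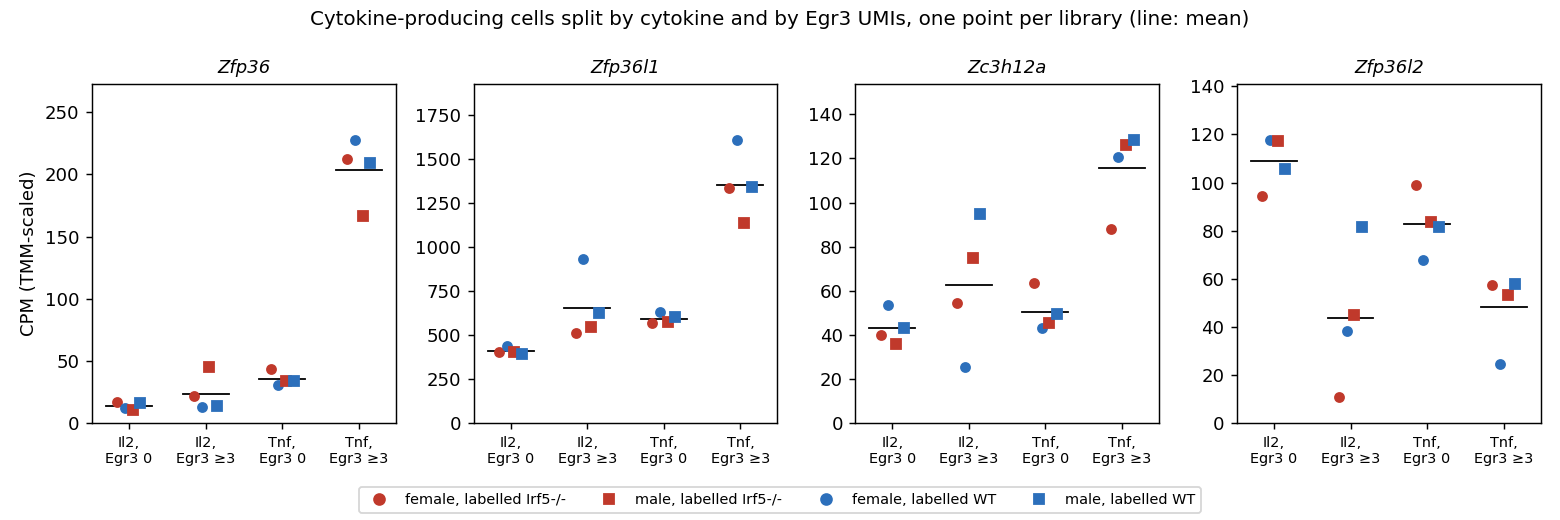
Levels (y axes, CPM of summed UMIs after TMM scaling) of 4 of the genes in cells with at least 3 UMIs of Il2 or of Tnf alone, split by 0 or at least 3 Egr3 UMIs (x axes), with 1 point per library and a line at the mean. Zfp36 lies at 166 to 227 CPM in cells with Tnf and Egr3 and at 45.0 CPM or less in the other 3 classes; the class with Il2 and Egr3 rests on 5 to 9 cells per library.

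The highest Zfp36 levels among cytokine-producing cells were in those with Tnf and at least 3 Egr3 UMIs: 212 and 166 CPM in the female and male libraries labelled Irf5-/- and 227 and 209 CPM in those labelled WT. Cells with Il2 and at least 3 Egr3 UMIs were rare (5 to 9 per library, 10 Zfp36 UMIs in all) and were not tested.

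With every cell thinned to 2000 UMIs, so that depth was equal, the Zfp36 count climbed with each added UMI of Egr3. It was 8.08 ± 0.810 per 100 cells (SD, n = 4 libraries) at 0 UMIs of Egr3, 16.8 ± 1.69 at 1, 41.9 ± 24.0 at 2 and 104 ± 14.4 at 3 or more. Against Tnf the climb was shallower, from 10.0 ± 1.80 at 0 UMIs to 26.1 ± 7.20 at 3 or more. Against Il2 the count was lower in each bin above 0, from 11.2 ± 1.49 at 0 UMIs to 2.97 ± 2.01 at 1 and 4.59 ± 3.30 at 3 or more, the latter from 15 UMIs of Zfp36; the bin at 2 UMIs held as few as 19 cells in a library. Zfp36l1 was higher in each further mean from 0 to 3 or more UMIs of Egr3, from 84.2 ± 4.02 to 250.1 ± 19.5 per 100 cells, and of Tnf, from 84.5 ± 4.50 to 258 ± 23.7. Against Il2 it was level at 92.6 ± 4.04, 89.7 ± 8.26 and 93.3 ± 18.6 at 0, 1 and 2 UMIs, and higher only at 3 or more, at 145 ± 25.7. Zc3h12a rose from 7.31 ± 0.497 to 43.1 ± 8.28 across the Egr3 bins, Zfp36l2 went from 23.4 ± 2.30 to 13.3 ± 1.88, Zc3h12d went from 8.97 ± 1.64 to 3.87 ± 1.497 (13 UMIs in all in the last bin) with no overlap between these bins, and mean Rc3h1 stayed between 13.4 and 17.9. These bins share cells and libraries and are given as a description.

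**Figure D4:**
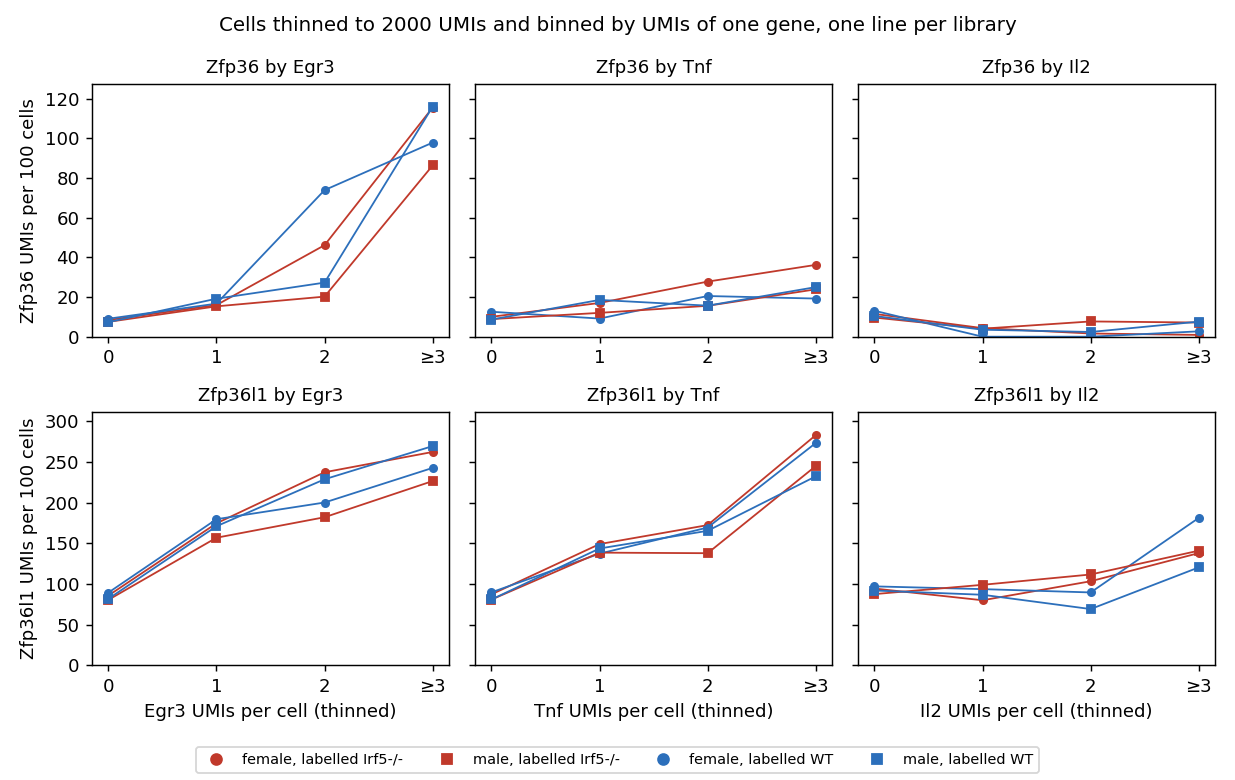
UMIs of Zfp36 (top) and Zfp36l1 (bottom) per 100 cells (y axes), with cells thinned to 2000 UMIs and grouped by 0, 1, 2 or at least 3 UMIs of Egr3, Tnf or Il2 (x axes), 1 line per library. Zfp36 reaches 86.4 to 116 at 3 or more UMIs of Egr3 and 0.901 to 7.59 at 3 or more of Il2, whereas Zfp36l1 is highest in the last bin of all 3 genes in each library.

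The genotype label separated none of the 6 genes in the fits of all kept cells, of resting, Egr3-high or cytokine-producing cells, or of the label's difference between states (edgeR, adjusted p from 0.224 to 1.00). The shares of all genes called in these fits were 1.21%, 0.95%, 0.431%, 0.661% and 0.118%. At an unadjusted p under 0.05 there were 6 of the 30 values, where 5.86% to 8.005% of all genes in the 5 fits were. Zc3h12d was lowest in p over all cells, at 41.5 and 34.9 CPM in the female and male libraries labelled Irf5-/- and 50.8 and 40.9 CPM in those labelled WT. It was lower in the library labelled Irf5-/- of each sex, at a log2 difference of -0.26 (SE 0.08, adjusted p = 0.224 in edgeR, with 0.0787 to 1.00 over the alternatives). Zfp36 in cytokine-producing cells, with the values given above, was at a log2 difference of -0.38 in the libraries labelled Irf5-/- (SE 0.13, adjusted p = 0.346), in both sexes. The Il2-producing share of these cells also differed, and its part in the difference was not tested: Il2-producing cells were 234 of 490 and 218 of 695 of them in the female and male libraries labelled Irf5-/- and 66 of 251 and 183 of 843 in those labelled WT. Within Tnf-producing cells Zfp36 stood at 84.2 against 85.9 CPM in the female libraries (labelled Irf5-/- and WT) and 69.2 against 80.2 CPM in the male ones, lower in the library labelled Irf5-/- of each sex. Within Il2-producing cells it stood at 20.6 against 13.9 and 11.5 against 20.9 CPM, in opposite directions in the 2 sexes. Zfp36l1 in all cytokine-producing cells was at -0.24 (SE 0.10, adjusted p = 0.539). Zfp36l2 was at -0.35 in resting cells (SE 0.14, adjusted p = 0.486) and Zc3h12d at -0.75 in Egr3-high cells (SE 0.30, adjusted p = 0.450). The label's difference in Zfp36l2 changed by 0.54 between resting and cytokine-producing cells (SE 0.16, adjusted p = 0.483). With 2 libraries per label, a missed threshold does not show that the levels are alike.

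**Figure D5:**
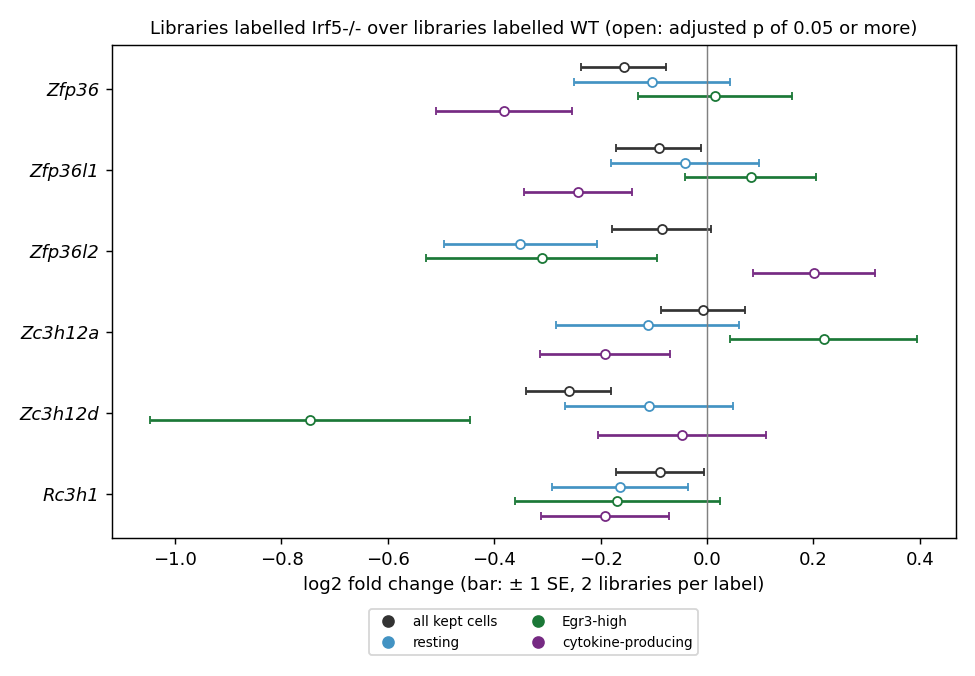
Log2 fold change (x axis) of the 6 genes (y axis) in libraries labelled Irf5-/- over those labelled WT, with bars of 1 SE and 2 libraries per label, in all kept, resting, Egr3-high and cytokine-producing cells. All points are open, since no adjusted p was under 0.05; Zc3h12d in Egr3-high cells sits at -0.75, and the others lie between -0.38 and 0.22.

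The sexes were compared after the data were seen, over all kept cells, within resting, Egr3-high and cytokine-producing cells, and for the change of the sex difference from resting to Egr3-high cells. In these 5 fits 1.31%, 1.38%, 2.86%, 0.282% and 0% of genes were called by edgeR (in the last, 928 of 10146 had an unadjusted p under 0.05). Of the 30 values of the 6 genes, 2 were called, both within Egr3-high cells, while the other 28 had an edgeR adjusted p of 0.160 to 1.00. Zfp36 stood at 359 and 331 CPM in the female libraries (labelled Irf5-/- and WT) and at 196 and 206 CPM in the male ones, a log2 difference of -0.80, male over female (SE 0.15, adjusted p = 7.87e-06). Zc3h12a stood at 169.7 and 128 CPM in the female and 105 and 99.2 CPM in the male libraries (-0.57, SE 0.18, adjusted p = 0.0470). With DESeq2 the log2 differences were nearly as large, at -0.79 for Zfp36 and -0.55 for Zc3h12a, but neither was called (adjusted p = 0.166 and 0.999). With cells thinned to 2000 UMIs they were -0.20 and -0.44, and neither was called (adjusted p = 0.979 for each). Zc3h12a was also not called at thresholds of 5 UMIs (-0.62, adjusted p = 0.0839) or without cells of other lineages (-0.58, adjusted p = 0.124), although its difference there was as large, while Zfp36 was called in both (-0.76, adjusted p = 0.00188, and -0.77, adjusted p = 0.00470). Egr3 itself, which sets the class, stood at 1226 and 1027 CPM in the Egr3-high cells of the female libraries and at 905 and 731 CPM in those of the male ones, and its part in the difference was not tested. The change of the sex difference between resting and Egr3-high cells did not pass for Zfp36 (-0.47, adjusted p = 0.531) or Zc3h12a (-0.58, adjusted p = 0.495), and within cytokine-producing cells the sex difference of Zfp36 was 0.01 (adjusted p = 1.00).

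The counts of the 7 lists below are to be read against all genes tested, of which 30.9% were called higher and 31.3% lower in Egr3-high against resting cells, 37.3% and 41.2% in cytokine-producing against resting cells, and 17.3% and 17.6% in cytokine-producing against Egr3-high cells. Of 18 genes of the CCR4-NOT complex and other deadenylases and their adaptors, 8 rose and 3 fell in Egr3-high against resting cells (median log2 difference 0.12, against -0.08 over all genes), so the total called was near the 62.2% of all genes. The genes with the largest rise were adaptors that bring deadenylases to mRNAs: Tob2 rose from a mean of 30.9 to 183 CPM (log2 difference 2.50, SE 0.12, adjusted p = 2.77e-11), Btg2 from 329.9 to 696 CPM (1.05, SE 0.15, adjusted p = 7.95e-06) and Btg1 from 769 to 1506 CPM (0.96, SE 0.09, adjusted p = 9.71e-08). As with Zfp36, these 3 were lower in cytokine-producing than in Egr3-high cells, Btg2 at -1.77 (adjusted p = 1.52e-07), Tob2 at -0.79 (adjusted p = 3.36e-05) and Btg1 at -0.62 (adjusted p = 5.88e-05), among 5 that fell and none that rose. In cytokine-producing cells the mean of Btg2 was 203 CPM, below its resting mean. Those of Tob2 and Btg1 were 101 and 978 CPM, above their resting means. Btg2 was also 2.03 higher in Tnf- than in Il2-producing cells (adjusted p = 1.56e-14), among 4 of 18 that were higher, where 13.7% of all genes were.

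Most tested genes of the RNA exosome, which degrades RNA from the 3′ end, were higher in cytokine-producing than in Egr3-high or resting cells. Of its 13 tested genes, 9 rose and none fell in Egr3-high against resting cells, where 30.9% of all genes were higher, and 12 rose and 1 fell in cytokine-producing against resting cells (median 1.42, against -0.09 over all genes), where 37.3% were higher. Dis3, its catalytic subunit, was at a mean of 12.3 CPM in resting, 56.0 in Egr3-high and 94.98 in cytokine-producing cells (log2 difference from resting 2.25 and 2.92, adjusted p = 2.47e-08 and 1.62e-11). Cytokine-producing cells exceeded Egr3-high cells in 10 of the 13, where 17.3% of all genes were higher, among them Exosc5 by 0.73 (adjusted p = 7.54e-04) and Exosc4 by 0.68 (adjusted p = 6.63e-04). In Tnf- against Il2-producing cells none of the 13 was higher and 5 were lower, where 13.7% and 10.4% of genes were called in these directions.

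Of 15 genes of decapping and 5′ decay, 8 rose and 1 fell in Egr3-high cells and 9 rose and 2 fell in cytokine-producing cells, against resting cells. In total these are shares near or below the 62.2% and 78.5% of all genes called. By direction, 30.9% and 37.3% of all genes were higher. The median log2 differences of the list were 0.27 and 0.52, against -0.08 and -0.09 over all genes. The Lsm ring subunits Lsm2 and Lsm7 rose by 1.66 and 1.67 in cytokine-producing cells (adjusted p = 1.50e-09 and 2.88e-11), while Xrn1, the 5′ exonuclease, fell by 1.72 (SE 0.11, adjusted p = 2.69e-10), from a mean of 115 to 34.3 CPM. Of 10 genes of nonsense-mediated decay, 6 rose and 2 fell in each activated state against resting cells, where 62.2% and 78.5% of all genes were called and 30.9% and 37.3% were higher. The median log2 differences of these 10 were 0.33 and 0.29, against -0.08 and -0.09 over all genes. Upf1, the helicase of this pathway, was 0.97 higher in cytokine-producing cells (adjusted p = 1.31e-07). None of the 10 passed between the activated states (edgeR, 0 of 10 at an unadjusted p under 0.05). Among 12 other RNA-binding regulators, 5 rose and 4 fell in Egr3-high cells and 6 rose and 6 fell in cytokine-producing cells, against the same shares of all genes. Hnrnpd, which encodes the AU-rich element binder AUF1, rose by 1.18 (adjusted p = 3.21e-10) in cytokine-producing cells. Arid5a, known to stabilise transcripts that Regnase-1 destroys, fell by 1.76 (adjusted p = 5.19e-09), N4bp1, a nuclease-domain relative, fell by 1.97 (adjusted p = 1.92e-11) and Zc3hav1, the zinc-finger antiviral protein, fell by 1.60 (adjusted p = 6.00e-10).

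Of 10 genes of the kinases, phosphatases and protease complex upstream of the regulators, 7 rose and 2 fell in Egr3-high cells and 7 rose and 3 fell in cytokine-producing cells, where 30.9% and 37.3% of all genes were higher. Malt1, the protease that cleaves Regnase-1 and Roquin-1, rose from a mean of 56.6 CPM in resting to 189 in Egr3-high and 245 in cytokine-producing cells (log2 difference 1.69 and 2.07, adjusted p = 2.71e-09 and 1.66e-11). Mapkapk2, whose kinase phosphorylates tristetraprolin, rose by 1.25 and 0.98 (adjusted p = 6.57e-07 and 5.85e-07). Of 12 tested mRNAs reported as targets, genes used to sort cells aside, 9 rose and none fell in Egr3-high cells and 10 rose and 1 fell in cytokine-producing cells, against the same 30.9% and 37.3%. Among the 12 are Myc, Nfkbid, Irf4 and Tnfrsf4, already used above as transcripts of activated T cells, so their rise is not a separate observation. Nfkbid (6.31 and 5.47, adjusted p = 3.36e-15 and 2.34e-14) and Myc (4.93 and 4.66, adjusted p = 1.60e-14 and 2.77e-14) changed most. From Egr3-high to cytokine-producing cells the targets parted, with 3 higher and 5 lower, where 17.3% and 17.6% of all genes were: Tnfrsf4, the costimulatory receptor OX40, was 1.08 higher (adjusted p = 1.06e-05), while Nfkbiz, Notch1 and Nfkbid were lower at -1.03, -1.01 and -0.84 (adjusted p = 5.09e-05, 9.09e-07 and 1.40e-05).

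Few genes of these lists differed by genotype label over all cells. Of 94 tested genes in the 7 lists, 3 were called, where 1.21% of all genes were, named here after their values were seen: Malt1 was lower at -0.47 (SE 0.09, adjusted p = 0.0174) in libraries labelled Irf5-/-, and Tnfrsf4 and Ctla4 were higher by 0.58 (SE 0.09, adjusted p = 0.00314) and 0.62 (SE 0.09, adjusted p = 0.00219). The regulatory T cell markers Foxp3 and Ikzf2 were higher by 1.15 and 0.87 in the same libraries (adjusted p = 4.33e-04 and 1.44e-04). Their part in the difference of Tnfrsf4 and Ctla4 was not tested. Cytokine-producing cells, where Malt1 was highest, made up 7.93% and 10.6% of the female and male libraries labelled Irf5-/- and 13.8% and 18.5% of those labelled WT, and their part in the difference of Malt1 was not tested.

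The genes whose level ran most like each regulator over the 12 sums of library and state, among 5140 genes at a mean of at least 20 CPM, are given as a description, since the sums share cells, libraries and depth. They were Rrad (Pearson r = 0.979), Usp38 and Cap1 for Zfp36, and Egr1 (r = 0.997), Cd69 and Plaur for Zfp36l1. Zfp36l2 ran most like Glg1 (r = 0.973), Klhl24 and Setd1b, Zc3h12a like Ccnl1 (r = 0.986), Junb and Arpc4, and Rc3h1 like Usp34 (r = 0.977), Wapl and Rbm4. The closest genes to Zc3h12d, whose full-depth levels overlapped between resting and Egr3-high cells, reached only r = 0.848 (Ranbp9).

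The positions of the 6 genes bear on what was counted (GENCODE M21, GRCm38). Zfp36 (chr7:28376784-28380253, minus strand), Zfp36l1 (chr12:80107754-80113013, minus strand) and Zfp36l2 (chr17:84183931-84187947, minus strand) each overlap a noncoding gene on the other strand (Gm44710, Gm26669 and AC132455.1). Zc3h12d (chr10:7832470-7870396, plus strand) overlaps 2 small RNA genes and Rc3h1 (chr1:160906418-160974978, plus strand) 3 unclassified genes on its own strand, while Zc3h12a (chr4:125118423-125127840, minus strand) overlaps none. The use of strand in counting is not given in the sources used here, so reads from the overlapping genes may not be separated.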

How the data were processed

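The authors deposited raw UMI counts per gene and barcode for all barcodes of each library, with no normalization. The submitters' processing notes list Cell Ranger 6.0.2 and mm10, while per the file headers the software was Cell Ranger 4; the use of strand is not given in the sources used here. The 6 genes, the gene lists and the tests were chosen with earlier results of these data known. Barcodes with at least 2000 UMIs, at least 500 genes and at most 10% mitochondrial UMIs were kept (Python 3.11.15, scanpy 1.11.5). Kept counts were summed per library and state and tested with edgeR 4.0.16 (R 4.3.3): quasi-likelihood test, TMM scaling, filterByExpr, Benjamini-Hochberg adjustment over all genes tested, called at an adjusted p under 0.05. States and cytokine classes had library as a term, genotype labels a sex term. The SE of an edgeR value was derived from its log2 difference and its F statistic, and is not a spread taken directly over libraries. Doublets were kept in the main results, and the 26 to 342 cells per library with the highest scrublet scores were removed as an alternative. The fits were tested on simulated data. Besides the 6 genes, the text names from each list up to 4 called genes per state comparison, at a mean of at least 20 CPM, with the largest change, and for each of the 6 genes the 3 with the highest correlation. Other named genes were chosen after their values were seen. The result of 1 marker list is not reported here.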

Additional observations from a re-analysis of the deposited data

How the results depend on the processing

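Of the 567 values of the 6 genes under alternative settings, 542 kept their side of the threshold, 19 were newly called, 6 were no longer called and 0 reversed; the causes were not tested. The 19 and 6 that changed concern differences between states or cytokine classes, mostly of Zc3h12d, Rc3h1 and Zfp36l2, and the ones that bear on a statement stand beside it. None of the 250 values for the genotype label was called. The sex comparisons are not among the 567 values, and their alternatives stand beside them above. Counts of called genes moved more. For the genotype label over all kept cells, 155 genes (104 higher and 51 lower in libraries labelled Irf5-/-) became 43 with DESeq2 1.42.0, 20 without an expression filter, 311 without cells of other lineages, 87 after subtracting free RNA, 7 without a sex term, 94 at equal cell number and depth, and 43 to 117 leaving out 1 library; without TMM scaling they were 92 higher and 23 lower. Within resting cells 97 became 10 with DESeq2, 3 without a sex term, 38 with thinned cells and 5 to 62 leaving out 1 library, and after subtracting free RNA 70 were higher and 47 lower, against 46 and 51. Within Egr3-high cells 30 became 0 with DESeq2 (37 at an unadjusted p under 0.05), 2 without a sex term, 3 with thinned cells and 1 to 72 leaving out 1 library. Within cytokine-producing cells 61 became 3 with DESeq2, 34 without a sex term, 0 with thinned cells (edgeR, 150 at an unadjusted p under 0.05) and 56 to 111 leaving out 1 library. For the label's difference between states 12 became 4 with DESeq2, 0 with thinned cells (edgeR, 269 at an unadjusted p under 0.05) and 5 to 62 leaving out 1 library. With cells thinned to 2000 UMIs, where fewer genes were tested, 1734 of 5081 genes were called between Egr3-high and resting cells, 3320 between cytokine-producing and resting cells and 2199 between the activated states; with resting set by 3 genes 3281 were called in the first. Between Tnf- and Il2-producing cells 2001 became 811 with DESeq2 (551 higher and 260 lower, against 1138 and 863), 1316 at thresholds of 5 UMIs, 409 with thinned cells and 504 in cells with 0 Egr3 UMIs. Between genotype labels, no pairing by replicate number was made because the labels give no such numbers; the sex term, which pairs a library of each label, is in the genotype fits, and the fits of states and cytokine classes compare within libraries through the library term. A fit that left out a library had no sex term, and its lone library is assumed to vary like the others. The values of Zc3h12d in Egr3-high cells (119 UMIs in all) and of Zfp36 in Il2-producing cells (130 UMIs) rest on few molecules.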
